A study of Homo sapiens with 7 samples.

Results

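Autophagy is the route by which a cell wraps cytoplasm, aggregates or organelles in a double membrane, the autophagosome, and delivers them to the lysosome for breakdown. ULK1 and BECN1 start the membrane, ATG7 and ATG5 belong to the machinery that attaches small ubiquitin-like proteins of the ATG8 family to its lipids, and receptors such as SQSTM1 (p62) and NBR1 hold cargo on one side and ATG8 proteins on the other. Senescent cells are known for enlarged lysosomes, and the β-galactosidase staining used to find them reads a lysosomal enzyme. The members described here were 10 genes chosen by name for these roles, SQSTM1, NBR1, MAP1LC3B, GABARAP, GABARAPL1, GABARAPL2, ATG5, ATG7, BECN1 and ULK1, and 9 of them had a row among the 14647 rows of the table.

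The libraries came from A549, an epithelial cell line of human lung adenocarcinoma origin that is known to carry inactivated KEAP1 and hence active NRF2. In 3 libraries (1 to 3) the cells had received doxorubicin, a topoisomerase II poison, at 100 nM for 24 h. In 4 libraries (4 to 7) a cyclic stretch of 15% elongation, with 15 cycles each minute, had been applied for 24 h. Cells of both groups were stained for β-galactosidase after 6 days and the positive ones were sorted, so both groups were selected by a lysosomal activity and no untreated cells were analysed here. The labels do not say whether libraries came from separate cultures, so the spread behind each p-value is that of these libraries and may be technical only.

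Totals ran from 2611766 to 4644650 estimated counts in doxorubicin and from 5636494 to 7419798 in stretch. Doxorubicin library 2 was the shallowest and stood apart, and library 1 did so less. The translation factor EIF4A2 took 16.1%, 30.6% and 10.8% of counts in doxorubicin libraries 1, 2 and 3, against 1.67% to 2.87% in stretch. Libraries 1 and 2 correlated with stretch at 0.724 to 0.879 (Pearson, log-CPM across genes), library 3 at 0.915 to 0.941. Library 3 correlated with doxorubicin libraries 1 and 2 at 0.882 and 0.754, lower than with any stretch library. Doxorubicin libraries 1 and 2 correlated with each other at 0.884, and the stretch libraries with each other at 0.939 to 0.978. Epithelial markers were present in all libraries, 5 of 6 above 3 counts in each, EPCAM being the exception. They summed to 3281 to 6767 CPM in doxorubicin and 2053 to 2394 CPM in stretch, ranges that do not overlap. The markers did not move together. KRT7 (1349 to 3377 against 929 to 1141 CPM in stretch) and KRT18 (1018 to 2763 against 401 to 514 CPM) were higher in doxorubicin. EPCAM was lower there, at 0.865 to 4.54 CPM against 10.2 to 14.6 CPM, and KRT8, KRT19 and CDH1 overlapped. The part of these differences in the results was not tested. Of 5 endothelial markers only CDH5 had a row, at no more than 0.963 CPM, and PTPRC and CD3E had none, while 5 fibroblast markers summed to 10.96 to 20.8 CPM in doxorubicin and 8.97 to 11.5 CPM in stretch. LYZ, CD14 and ITGAM, which are also known outside leukocytes, summed to 34.6 to 54.3 CPM and 40.3 to 42.2 CPM. CPM here means counts scaled to a common library size. These are bulk libraries, in which fewer cells of a type and less RNA per cell cannot be told apart.

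The ATG8 proteins need their sequences shown first, because MAP1LC3B, the gene of the much used autophagosome marker LC3B, had no row and is not analysed here, whereas its retrogene MAP1LC3B2 did. In GENCODE transcripts on GRCh38 the 375 coding bases of both genes (stop codon left out) differed at 2 positions, an identity of 99.5%. MAP1LC3B and MAP1LC3A matched in 67.9% of the columns of an alignment with gaps. Those were 264 of 389 columns, gap columns included, so the 2 percentages have different bases. The substitutions, written as the MAP1LC3B base, the position from the start codon's first base and the MAP1LC3B2 base, were C30G and A338G. The first pair of lines gives coding bases 1 to 60 and the second pair bases 309 to 368, with the differing base in capitals.
MAP1LC3B: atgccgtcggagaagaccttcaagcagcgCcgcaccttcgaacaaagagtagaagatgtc
MAP1LC3B2: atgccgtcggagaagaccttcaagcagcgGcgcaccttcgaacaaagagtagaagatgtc
MAP1LC3B: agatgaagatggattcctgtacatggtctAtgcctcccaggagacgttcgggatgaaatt
MAP1LC3B2: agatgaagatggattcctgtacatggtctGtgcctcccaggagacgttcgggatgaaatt
Of all 31-base words in MAP1LC3B2 transcripts, UTRs included, 18.2% also occur in MAP1LC3B. MAP1LC3B lies on chromosome 16 (87383995 to 87404779) and MAP1LC3B2 on chromosome 12 (116548105 to 116576448). Where the kit's amplicon for either gene lies is not given in the sources used here, so the row named MAP1LC3B2 cannot be assigned to one of the pair.

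Of the 8 members that could be tested, none differed between stretch and doxorubicin past an adjusted p of 0.05 by edgeR's quasi-likelihood test, nor did any reach an unadjusted p of 0.05. DESeq2 and limma-voom also called 0, with 3 and 2 of the 8 members at an unadjusted p under 0.05. Over all tested genes DESeq2 called 11.6% and limma-voom 1.66%, with 26.7% and 22.1% at an unadjusted p under 0.05. By edgeR 2.32% of all 11230 tested genes passed, 0.356% higher in stretch and 1.97% higher in doxorubicin, and 23.2% had an unadjusted p under 0.05. The members lay on both sides, 4 higher in stretch and 4 in doxorubicin, with a median of -0.05 for the log2 fold change, taken as stretch minus doxorubicin throughout, where all genes had 0.02. On library totals alone, without TMM scaling, the median of all genes moved to 0.71 and all 8 members lay on the stretch side, NBR1, ATG7, BECN1 and ULK1 included, so directions here are relative to the TMM scaling. The median absolute difference of the members was 0.64, against 0.53 over all genes. Group ranges did not overlap for 2 of the 8, GABARAPL2 (higher in stretch, as were 11.5% of all genes) and ATG7 (higher in doxorubicin, 9.88%), and over all genes the share in either direction was 21.4%. Intervals were wide: the 95% interval of every member reached a difference of at least 1.77-fold on one side, so these data do not show that the groups are alike.

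**Figure D1:**
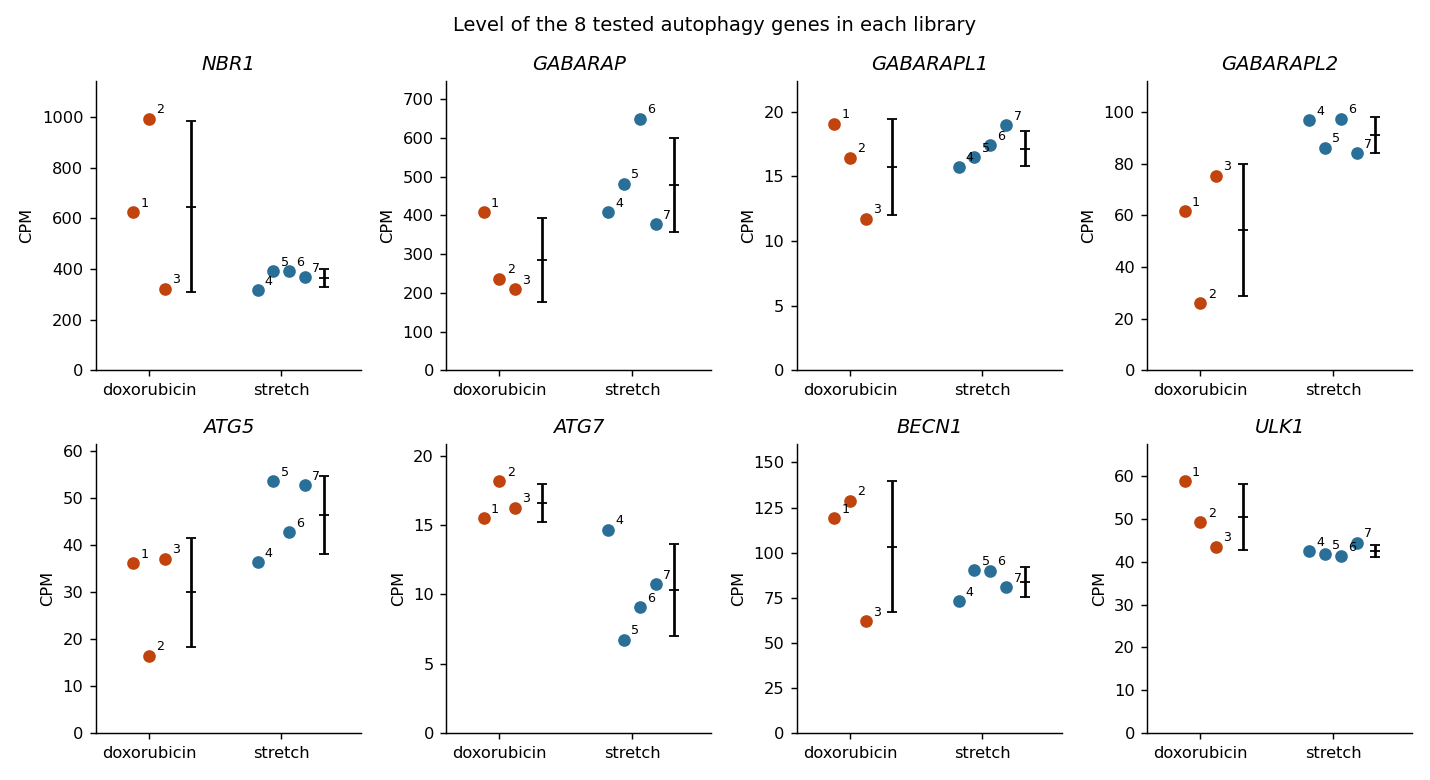
Level of the 8 tested members in each library (y axis, CPM on the TMM-scaled library size, from 0), with the library number beside each point and the mean ± SD of each group (3 doxorubicin, 4 stretch libraries) at its right. Ranges are apart for GABARAPL2 and ATG7 only, and doxorubicin library 2 lies at the edge for NBR1, at 993 CPM, and for GABARAPL2, at 25.9 CPM.

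Among the receptors, NBR1, which binds ubiquitin and ATG8 proteins and works beside p62 in clearing aggregates (chromosome 17, 43170481 to 43211689), had the largest difference of the members. It stood at 625, 993 and 322 CPM in doxorubicin libraries 1 to 3, and at 315, 390.4, 391 and 367 CPM in stretch libraries 4 to 7. Libraries 1 and 2 lay above every stretch library, and library 3 lay inside the stretch range. The log2 fold change was -0.82 (SE 0.37, 95% interval -1.64 to 0.00, adjusted p = 0.218 by edgeR), and its order over the doxorubicin libraries was that of the EIF4A2 share. The part of that share in the result was not tested. Without doxorubicin library 2 the value was -0.36 and with library 3 standing alone for doxorubicin it was 0.20, the opposite direction. Without library 3 it was -1.11, with an adjusted p of 0.0105 by edgeR.

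SQSTM1, the receptor p62 that links ubiquitinated cargo to the autophagosome and also sequesters KEAP1 (chromosome 5, 179806398 to 179838078), was all but missing from the table. Its row held 1, 0 and 6 counts in doxorubicin libraries 1, 2 and 3, and 5, 2, 0 and 2 counts in stretch libraries 4 to 7. A floor of 3 counts equals 0.321 to 2.59 CPM, depending on the library, and only doxorubicin library 3 and stretch library 4 were above it. The gene did not pass the filter on low counts, and no fold is given. The gene's exons share 20.7% of their bases with MRNIP on the opposite strand (listed as C5orf45), whose row held 5 to 147 counts in doxorubicin and 134 to 355 in stretch. Whether counting used strand is not given in the sources used here. SQSTM1 was not alone at this level: the lysosomal membrane protein LAMP1 had 0 to 9 counts, ATG13 of the ULK complex 0 to 4, and the reticulon RTN3 0 to 11, so a low count in this table is not read as a low level in the cells.

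Of 19 other autophagy receptors 17 had a row and 15 were tested. None passed by edgeR, 6 had an unadjusted p under 0.05 (40%, beside 23.2% of all tested genes), and the calls were 4 by DESeq2, beside 11.6% of all tested genes, and 0 by limma-voom. The median was -0.05, with 7 on the stretch side, and 0.28 with doxorubicin library 3 alone. FKBP8, an outer mitochondrial membrane protein that recruits LC3, stood at 5.52 ± 1.48 CPM (SD, n = 3) in doxorubicin and 16.2 ± 3.91 CPM (n = 4) in stretch (log2 fold change 1.58 with an SE of 0.38, adjusted p = 0.0544 by edgeR). By edgeR its adjusted p was 0.0439 without doxorubicin library 2, where 2.47% of all genes passed. It was 0.0140 by edgeR without library 3, where 32.2% passed, and 0.0707 to 0.203 without any other library. FKBP8 was among the DESeq2 calls (adjusted p = 0.00396 by DESeq2). RETREG1 (listed as FAM134B), a receptor for turnover of the endoplasmic reticulum, lay the other way, at 18.6 ± 4.22 CPM against 8.57 ± 2.16 CPM, with a log2 fold change of -1.12. Group ranges did not overlap for 5 of the 15 (33.3%), beside 21.4% of all tested genes. FKBP8 (higher in stretch, as were 11.5% of all tested genes) and RETREG1 (higher in doxorubicin, 9.88%) were among the 5.

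All 3 tested ATG8 members lay on the stretch side, with intervals that included 0. GABARAPL2 (GATE-16, chromosome 16, 75566351 to 75577881), an ATG8 protein also known from Golgi traffic, stood at 61.6, 25.9 and 75.4 CPM in doxorubicin libraries 1 to 3 and at 97.1, 86.2, 97.5 and 84.2 CPM in stretch libraries 4 to 7. Every stretch library lay above every doxorubicin library. The fitted log2 difference was 0.73 (SE 0.36, 95% interval -0.06 to 1.52, adjusted p = 0.247 by edgeR). It was 0.42 without doxorubicin library 2, 1.06 without library 3, where the adjusted p was 0.0360 by edgeR, and 0.29 with library 3 alone. The direction held in each of these, while the size moved with the libraries.

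GABARAP, the founding member of its branch, which also binds GABA-A receptors (chromosome 17, 7240014 to 7242770), stood at 408, 237 and 209 CPM in doxorubicin libraries 1 to 3. In stretch libraries 4 to 7 it stood at 408, 482, 649.7 and 378 CPM. Doxorubicin library 1 lay inside the stretch range and libraries 2 and 3 below it. Stretch minus doxorubicin came to 0.75 on the log2 scale (SE 0.35, 95% interval -0.03 to 1.53, adjusted p = 0.229 by edgeR), and it was 0.57 to 1.11 with any 1 library left out, 1.21 with doxorubicin library 3 alone and 0.30 with voom and library quality weights. Its exons share 30.5% of their bases with AC120057.2, a gene on the same strand that has no row. Where the kit's amplicon lies is not given in the sources used here, so its counts may or may not include that gene.

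GABARAPL1, a stress-inducible relative of GABARAP (chromosome 12, 10212458 to 10223130), stood at 19.1, 16.4 and 11.7 CPM in doxorubicin and at 15.8, 16.5, 17.4 and 18.9 CPM in stretch. The doxorubicin range enclosed the stretch range. On the log2 scale the difference was 0.14 (SE 0.31, 95% interval -0.55 to 0.82, adjusted p = 0.816 by edgeR). The interval spans 0.685-fold to 1.77-fold, so larger differences lie outside it.

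MAP1LC3B2 stood at 129, 88.2 and 109 CPM in doxorubicin and at 138, 108, 112 and 87.6 CPM in stretch. The ranges covered each other almost wholly, and the log2 fold change was 0.03 (SE 0.29, 95% interval -0.61 to 0.68, adjusted p = 0.958 by edgeR). MAP1LC3A, the gene of LC3A, stood at 52.4, 50.2 and 18.1 CPM in doxorubicin and at 15.9, 10.8, 18.3 and 8.07 CPM in stretch. Doxorubicin libraries 1 and 2 lay above the rest and library 3 lay within the stretch range, with a log2 fold change of -1.58 (SE 0.43, adjusted p = 0.0735 by edgeR) that was -0.44 with library 3 alone. MAP1LC3C stood at 4.77, 6.05 and 6.24 CPM in doxorubicin and at 2.94, 3.64, 2.16 and 3.12 CPM in stretch. Every doxorubicin library of MAP1LC3C lay above every stretch library, as in 9.88% of all tested genes. The log2 fold change of MAP1LC3C was -0.94 (SE 0.39, 95% interval -1.79 to -0.08, adjusted p = 0.180 by edgeR). Of the 3 other ATG8 genes, MAP1LC3A, MAP1LC3B2 and MAP1LC3C, none passed by edgeR. An unadjusted p under 0.05 was found for 2 of them (66.7%, beside 23.2% of all tested genes). The calls were MAP1LC3A by DESeq2, beside 11.6% of all tested genes, and 0 by limma-voom.

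**Figure D2:**
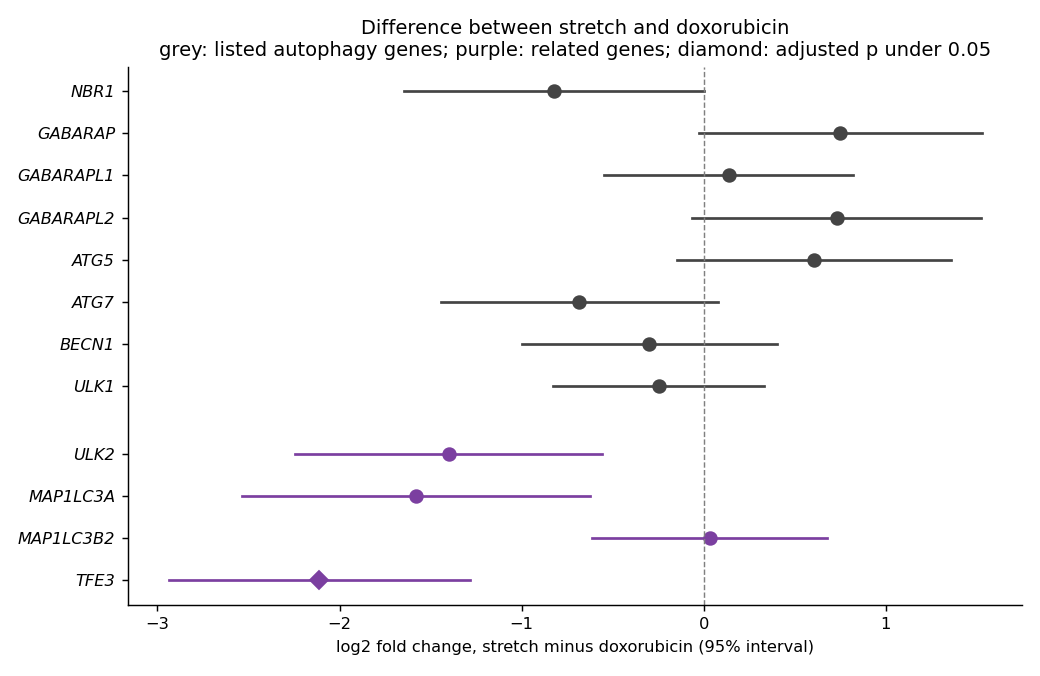
Log2 fold change (x axis, stretch minus doxorubicin) with its 95% interval for the 8 tested members in grey and 4 related genes in purple. The interval of each member includes 0, and TFE3, at -2.11, is drawn as a diamond because its adjusted p is 0.0224.

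ATG5 and ATG7, which serve the same conjugation pathway, lay on opposite sides. ATG5, which joins ATG12 and ATG16L1 in the complex that sets ATG8 on lipid (chromosome 6, 106045423 to 106325791), stood at 36.1, 16.4 and 37.0 CPM in doxorubicin libraries 1 to 3 and at 36.3, 53.5, 42.7 and 52.7 CPM in stretch. Library 2 was low, and libraries 1 and 3 lay beside the lowest stretch library. The fitted log2 difference was 0.61 (SE 0.34, 95% interval -0.15 to 1.36, adjusted p = 0.307 by edgeR), and 0.35 without doxorubicin library 2.

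ATG7, the E1-like enzyme that activates ATG12 and the ATG8 proteins (chromosome 3, 11272309 to 11557665), stood at 15.5, 18.2 and 16.3 CPM in doxorubicin and at 14.7, 6.74, 9.08 and 10.8 CPM in stretch. Every doxorubicin library lay above every stretch library, stretch library 4 by the least. The doxorubicin libraries were close together, with an SD of 0.12 on the log2 scale against 0.45 in stretch, where the median gene had 0.72 and 0.30. Stretch minus doxorubicin came to -0.68 on the log2 scale (SE 0.35, 95% interval -1.45 to 0.08, adjusted p = 0.257 by edgeR). It was -0.64 with doxorubicin library 3 alone and 0.063 on library totals alone. ATG7 exons share 18.1% of their bases with VGLL4 on the opposite strand.

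The other conjugation enzymes had a median of 0.39, with 6 of 8 tested genes on the stretch side. None passed by edgeR, 2 had an unadjusted p under 0.05 (25%, beside 23.2% of all tested genes), and DESeq2 and limma-voom called 0. ATG16L2, a relative of ATG16L1, stood at 6.38 ± 4.63 CPM in doxorubicin and 14.0 ± 2.33 CPM in stretch. The protease ATG4C stood at 0.775 ± 0.672 CPM and 2.65 ± 1.03 CPM. It had 3, 0 and 6 counts in doxorubicin libraries 1 to 3, so only library 3 was above the floor of 3 counts. The list's median was -0.14 with doxorubicin library 3 alone, the opposite side.

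The initiation members, BECN1 and ULK1, had intervals that included 0. BECN1, the regulatory subunit of the PI3-kinase complex that marks the growing membrane (chromosome 17, 42810134 to 42833350), stood at 119, 129 and 61.8 CPM in doxorubicin libraries 1 to 3 and at 73.0, 90.2, 90.1 and 80.8 CPM in stretch. Library 3 lay below and libraries 1 and 2 above all stretch libraries. On the log2 scale the difference was -0.30 (SE 0.32, 95% interval -1.001 to 0.40, adjusted p = 0.592 by edgeR), and 0.45 with doxorubicin library 3 alone. BECN1 exons share 12.4% of their bases with CNTD1 and 4.7% with PSME3, both on the opposite strand.

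ULK1, the kinase that starts autophagosome formation when AMPK is active and mTORC1 is not (chromosome 12, 131894651 to 131923167), stood at 58.8, 49.3 and 43.5 CPM in doxorubicin and at 42.5, 41.8, 41.3 and 44.4 CPM in stretch. It was the steadiest member in stretch, with an SD of 0.05 on the log2 scale in stretch and 0.22 in doxorubicin. The fitted log2 difference was -0.25 (SE 0.26, 95% interval -0.83 to 0.33, adjusted p = 0.591 by edgeR). ULK2, its paralogue, stood at 92.9, 170.3 and 49.7 CPM in doxorubicin and at 40.1, 40.0, 40.1 and 36.3 CPM in stretch. All doxorubicin libraries of ULK2 were above all stretch libraries, as in 9.88% of all tested genes, and followed the order of the EIF4A2 share. The log2 fold change of ULK2 was -1.40 (SE 0.38, adjusted p = 0.0731 by edgeR), and -0.33 with library 3 alone. DESeq2 called ULK2 (adjusted p = 0.0154 by DESeq2), beside 11.6% of all tested genes, and limma-voom did not. Of the 2 tested genes of the initiation list, ULK2 and ATG101, 1 had an unadjusted p under 0.05 (50%, beside 23.2% of all tested genes). ATG101, a partner of ATG13, stood at 28.2 ± 13.1 CPM in doxorubicin and 42.2 ± 14.7 CPM in stretch, and AMBRA1, which binds BECN1, at 30.5 ± 17.1 CPM and 18.3 ± 2.19 CPM. Neither passed. Whether ULK1 and ULK2 differ from each other in this was not tested.

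RUBCN (listed as KIAA0226), the Rubicon protein that restrains the PI3-kinase complex, stood at 52.1 ± 26.8 CPM in doxorubicin and 21.0 ± 1.82 CPM in stretch, with a log2 fold change of -1.29 (adjusted p = 0.0797 by edgeR) that was -0.29 with doxorubicin library 3 alone. Of 6 tested genes of that complex none passed by edgeR, and 1 had an unadjusted p under 0.05 (16.7%, beside 23.2% of all tested genes). The calls were 1 by DESeq2, beside 11.6% of all tested genes, and 0 by limma-voom. Among 10 genes of membrane supply the counts were 0 by edgeR, 2 unadjusted (20%, beside 23.2% of all tested genes), 2 by DESeq2 (beside 11.6%) and 0 by limma-voom. The median of these 10 genes was -0.03, and 0.08 with doxorubicin library 3 alone. They lay on both sides. ATG9A, the scramblase of seed vesicles, was at 3.61 ± 1.64 CPM against 9.59 ± 2.18 CPM in stretch. Its 2 counts in doxorubicin library 2 lay below the floor of 3 counts. WIPI2, which reads the PI3P mark, was at 434 ± 426 CPM against 125 ± 31.5 CPM. WIPI2 was at 909.6 CPM in doxorubicin library 2 and 85.4 CPM in library 3, below the lowest stretch library.

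The doxorubicin libraries were further apart from each other than the stretch libraries for 7 of the 8 members, ATG7 being the exception. The median SD of log2 CPM over the 8 members was 0.55 in doxorubicin and 0.15 in stretch, and over all tested genes 0.72 and 0.30. Doxorubicin library 2 was the highest library for NBR1, ATG7 and BECN1 and the lowest for GABARAPL2 and ATG5, and it was highest in 28.4% and lowest in 40.7% of all tested genes. Without doxorubicin library 3, edgeR called 2 of 8 members (NBR1 and GABARAPL2), where 32.2% of all tested genes passed. With voom and library quality weights, it was 3 of 8 (also ATG7), where 47% passed. Neither count stands above its background. The members whose groups did not overlap were 6 of 8 without doxorubicin library 3, beside 55% of all genes, 5 of 8 with library 3 alone, beside 56.9%, and 6 of 8 on library totals alone, beside 32.8%.

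**Figure D3:**
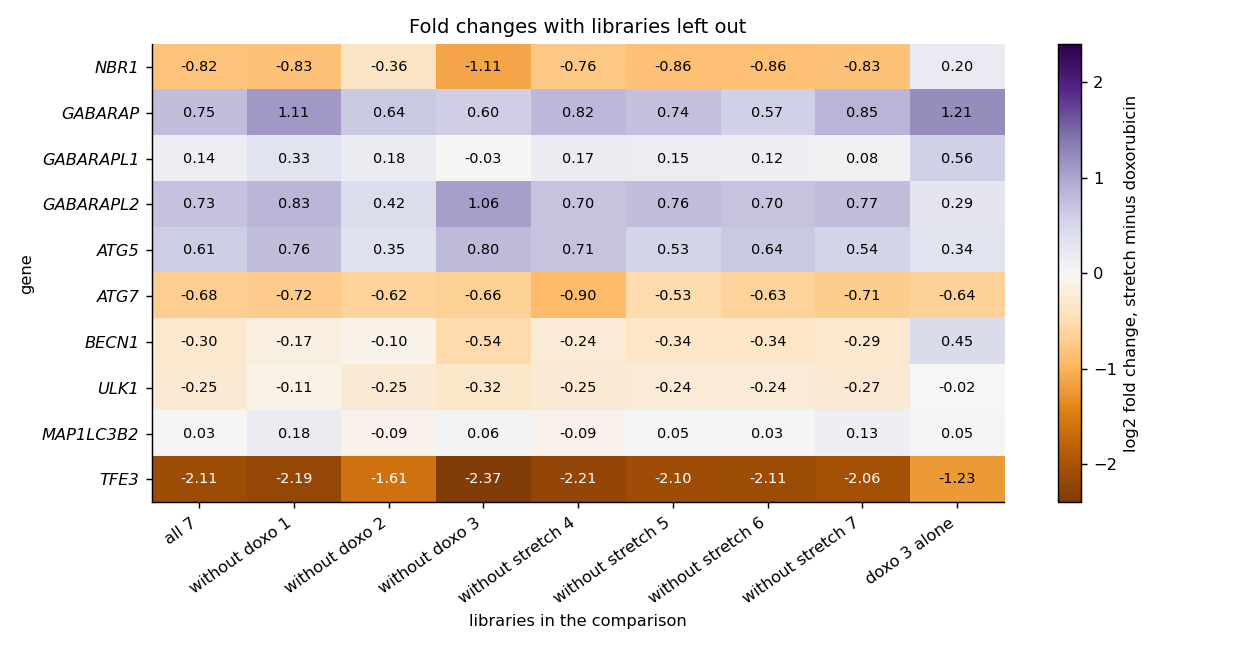
Log2 fold change (colour and number, stretch minus doxorubicin) of 8 members, MAP1LC3B2 and TFE3 (rows) with all 7 libraries, with each library left out, and with library 3 standing alone for doxorubicin (columns). NBR1 and BECN1 change sign in the last column, to 0.20 and 0.45, while GABARAP, GABARAPL2, ATG5, ATG7, ULK1 and TFE3 keep theirs in all columns.

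Among the genes that control or complete autophagy, 121 were tested in 11 lists. Of these 1 passed by edgeR (0.826%, beside 2.32% of all tested genes), TFE3. It codes a transcription factor of the TFEB family, which is held in the cytoplasm by mTORC1 and drives lysosomal and autophagy genes when released (chromosome X, 49028726 to 49043486). TFE3 stood at 554, 1003 and 349 CPM in doxorubicin libraries 1 to 3 and at 174, 140.2, 145 and 128 CPM in stretch libraries 4 to 7. All doxorubicin libraries lay above all stretch libraries, in the order of the EIF4A2 share, whose part was not tested. TFE3 was 4.32-fold higher in doxorubicin (log2 fold change -2.11, SE 0.37, 95% interval -2.94 to -1.28, adjusted p = 0.0224 by edgeR). It passed in 9 of 16 alternatives and was -1.61 without doxorubicin library 2. With library 3 alone it was -1.23, and no p-value is given because a single library shows no spread within doxorubicin. TFE3 did not pass on library totals alone, at -1.14 (adjusted p = 0.125 by edgeR), or without doxorubicin library 1 (adjusted p = 0.0920 by edgeR). Without stretch library 4, 5, 6 or 7 it did not pass either (adjusted p = 0.0624, 0.119, 0.120 and 0.126 by edgeR). Over the 121 genes, 22.3% had an unadjusted p under 0.05 and 20.7% had groups that did not overlap, beside 23.2% and 21.4% of all tested genes. DESeq2 called 17 of the 121 (14%), beside 11.6% of all tested genes, and limma-voom only TFE3 (0.826%), beside 1.66%.

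The other transcription factors of that list, TFEB, MITF, FOXO1, FOXO3, ATF4 and NFE2L2, did not pass, and the 7 had a median of -0.35. Of 25 tested genes of mTORC1 and AMPK control none passed by edgeR, and 3 had an unadjusted p under 0.05 (12%, beside 23.2% of all tested genes). The calls were 2 by DESeq2, beside 11.6% of all tested genes, and 0 by limma-voom. The median of the 25 was -0.25, and 0.15 with doxorubicin library 3 alone. DEPTOR, an inhibitory subunit of the mTOR complexes, stood at 9.93, 9.51 and 10.02 CPM in doxorubicin and at 12.8, 32.4, 26.3 and 26.2 CPM in stretch (log2 fold change 1.31, adjusted p = 0.0837 by edgeR). LAMTOR5, a subunit of the Ragulator scaffold that brings mTORC1 to the lysosome, stood at 47.5 ± 17.2 CPM against 114 ± 35.7 CPM in stretch. Each was lower in every doxorubicin library than in any stretch library, as were 11.5% of all tested genes.

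**Figure D4:**
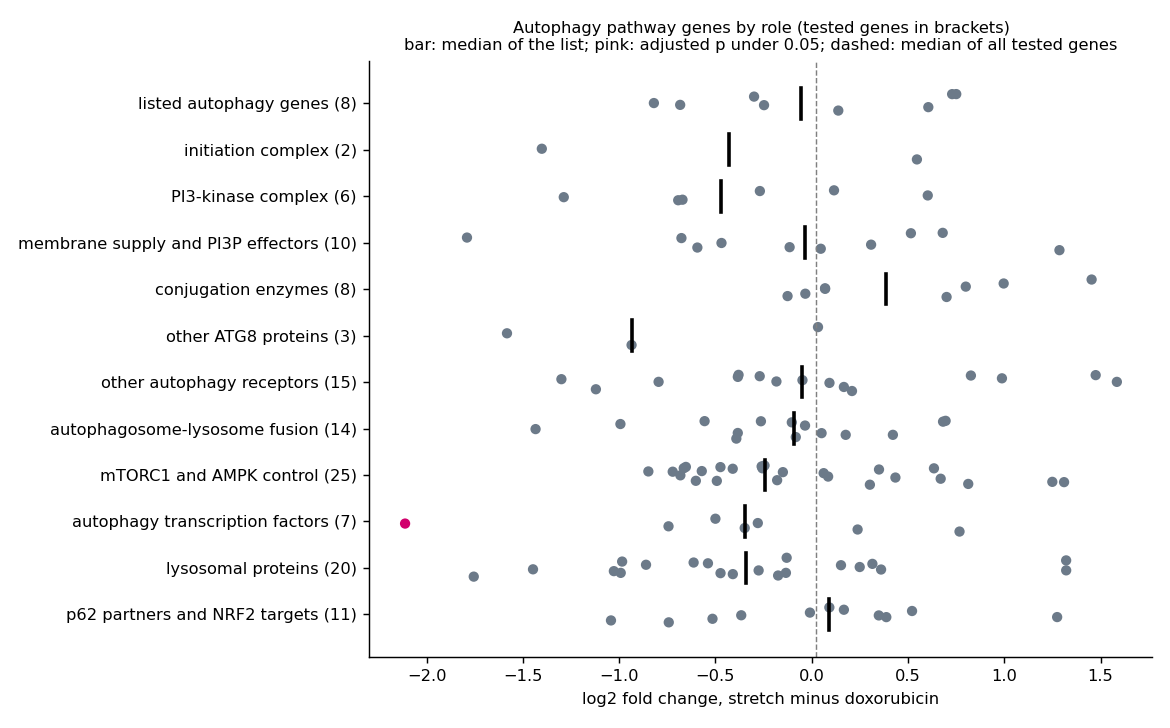
Log2 fold change (x axis, stretch minus doxorubicin) of each tested gene (points) in the members and in 11 lists by role (y axis, number of tested genes in brackets), with the median of each list as a black bar and that of all tested genes, 0.02, as a dashed line. TFE3 is the one pink point, the only gene with an adjusted p under 0.05, and each list with at least 6 genes has points on both sides of 0.

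Of 14 tested fusion genes, which bring the autophagosome to the lysosome, none passed by edgeR. An unadjusted p under 0.05 was found for 2 (14.3%, beside 23.2% of all tested genes). The calls were 1 by DESeq2, beside 11.6% of all tested genes, and 0 by limma-voom. VPS11, a core subunit of the HOPS and CORVET tethers, stood at 27.8 ± 16.8 CPM in doxorubicin and 9.97 ± 1.53 CPM in stretch, and VPS39, the HOPS subunit that binds Rab7, at 88.9 ± 42.8 CPM and 44.3 ± 4.03 CPM. Of 20 tested lysosomal genes none passed by edgeR, and 5 had an unadjusted p under 0.05 (25%, beside 23.2% of all tested genes). The calls were 3 by DESeq2, MCOLN1 and CTSD higher in doxorubicin and CTSL higher in stretch, beside 11.6% of all tested genes. Limma-voom called 0. With all libraries 14 of the 20 lay on the doxorubicin side and 6 on the stretch side. The median of the lysosomal genes was -0.34 with all libraries and 0.36 with doxorubicin library 3 alone. MCOLN1, the lysosomal calcium channel TRPML1 (chromosome 19, 7522626 to 7534009), stood at 58.0, 119 and 29.9 CPM in doxorubicin and at 23.5, 19.2, 17.8 and 20.0 CPM in stretch (log2 fold change -1.75 with an SE of 0.42, adjusted p = 0.0547 by edgeR). CTSD, the protease cathepsin D, stood at 1399, 1829.6 and 337 CPM in doxorubicin and at 366, 511, 464 and 402 CPM in stretch, with library 3 below the stretch range. CTSL lay the other way, at 127, 28.5 and 127 CPM in doxorubicin and at 263, 221, 234 and 231 CPM in stretch. The log2 fold change of CTSL was 1.32 (adjusted p = 0.127 by edgeR).

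TFEB and TFE3 are known to bind CACGTG within the CLEAR element of lysosomal promoters, so the 250 bases upstream of each RefSeq start (GRCh38.p14) were searched for these letters, which read the same on both strands. They stood in 6.3% of 35116 windows of that length, or in at least one window of 7.7% of genes. All 10 members had a window, and none of their 14 windows held the letters. Of the 12 lysosomal genes of the list with a window, 7 held them: LAMP1, CTSA, CTSD, GAA, NEU1, MCOLN1 and ATP6V0D1. They also stood in 5 of 21 genes of mTORC1 and AMPK control, 3 of 10 fusion genes, 2 of 6 of the PI3-kinase complex, and 1 gene each of the conjugation, receptor, transcription factor and p62 lists (of 8, 15, 7 and 10). No gene of the other 3 lists held them. The MCOLN1 window, chr19:7522374-7522623 on the plus strand, is shown with both matches in capitals because MCOLN1 had the lowest p of the lysosomal list.
MCOLN1: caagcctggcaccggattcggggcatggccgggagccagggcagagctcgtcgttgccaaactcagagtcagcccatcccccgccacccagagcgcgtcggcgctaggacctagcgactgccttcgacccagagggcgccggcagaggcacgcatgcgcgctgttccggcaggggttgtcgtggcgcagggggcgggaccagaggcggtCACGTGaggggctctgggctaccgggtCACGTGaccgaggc
The matches begin 41 and 14 bases upstream of the start. Binding was not measured here, and a match is a description of the letters only.

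The last list joined partners of p62 with NRF2 targets, since p62 is known both to release NRF2 from KEAP1 and to be an NRF2 target. Of 11 tested genes none passed by edgeR, and 2 had an unadjusted p under 0.05 (18.2%, beside 23.2% of all tested genes). The calls were 1 by DESeq2, beside 11.6% of all tested genes, and 0 by limma-voom. The median of the 11 was 0.09. GCLC, the catalytic subunit of glutathione synthesis, stood at 28.6, 37.2 and 27.6 CPM in doxorubicin and at 60.3, 69.3, 92.3 and 76.8 CPM in stretch. The group ranges did not overlap, as in 11.5% of all tested genes in that direction. The log2 fold change of GCLC was 1.27 (SE 0.30, adjusted p = 0.0517 by edgeR) in the fit to all libraries. By edgeR the adjusted p was 0.0339 without doxorubicin library 2, where 2.47% of all genes passed. It was 0.0121 by edgeR without library 3, where 32.2% passed, and 0.0785 to 0.195 without any other library. With no filter on low counts it was 0.0449 by edgeR, where 1.96% passed. GCLC was the DESeq2 call (adjusted p = 0.00148 by DESeq2). SRXN1, which repairs oxidised peroxiredoxins, lay the other way, at 191, 412 and 95.5 CPM in doxorubicin and at 89.3, 123, 103 and 134 CPM in stretch, with doxorubicin library 3 inside the stretch range. NFE2L2, which codes NRF2 itself, stood at 70.3 ± 15.8 CPM against 49.5 ± 8.68 CPM in stretch and did not pass.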

How the data were processed

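The authors deposited 1 gene table in whole numbers, which were taken as rounded estimated counts without normalisation. Per the labels' protocols, Trizol was used for the RNA and an Ion AmpliSeq human transcriptome kit for the libraries. That kit amplifies a short stretch per gene, so levels of different genes are not compared. Per the submitters' processing notes, the tools were Salmon 1.9 and fastp 0.20.1, with GRCh38, in roles not given. The sources used here give neither the annotation nor the rounding. Reads carry no molecular identifiers, so floors cover counting error only.

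Rows of 1 symbol were summed, leaving 14535 genes. They were filtered with filterByExpr, scaled by TMM factors (0.443 to 1.33) and tested with edgeR 4.0.16 in R 4.3.3 (glmQLFit, robust, and glmQLFTest, stretch against doxorubicin). The p-values of 11230 genes were adjusted by Benjamini and Hochberg's method, with calls under 0.05. SE is the size of the log2 difference over the root of F, and intervals use the fit's degrees of freedom. The test was tried on simulated counts that gave both groups the same spread for each gene. That trial does not cover the wider spread of the doxorubicin libraries, and its outcome is not given here. No library was a copy of another (chi-square per degree of freedom at least 7.07 in 21 pairs). Alternatives used limma 3.58.1 and DESeq2 1.42.0. Coordinates and transcripts are GENCODE release 29, promoters RefSeq.

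The members and lists were chosen with earlier results of these data known. The text names all members and, per list, the genes past the threshold and the 2 with the lowest p. LAMP1, ATG13, RTN3 and CTSL were named after their values were seen. A planned search for genes patterned like SQSTM1 was not run, since that row is near 0. MAP1LC3B and 6 genes of the lists have no row, and RUBCN, RETREG1 and MRNIP were matched by older symbols.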

Additional observations from a re-analysis of the deposited data

Results flagged for a closer look

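The stretch group of each of 31 genes named or followed here was checked for a library far from the other 3, and chance alone flags about 1 group in 20 (5%). None of the members was met by it. ULK2 stood at 36.3 CPM in stretch library 7, where the other stretch libraries lay between 40.0 and 40.1 CPM. VPS39 stood at 50.3 CPM in stretch library 5, and between 41.7 and 42.7 CPM in the others. NFE2L2 stood at 62.5 CPM in stretch library 6, and between 44.7 and 45.5 CPM in the others.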

How the results depend on the processing

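No paired analysis was possible because the groups share no replicate number. The 16 alternatives included 3 chosen after seeing the data: doxorubicin library 3 alone, voom with library quality weights, and EIF4A2 left out. The number of members past the threshold was 0 in 14 of them. Leaving out 1 library at a time gave 12 to 3736 genes past the threshold against 261, 0 to 2 members, 2 to 6 members not overlapping, and 0 to 39 genes of the lists. The highest of each came without doxorubicin library 3. There 31.7% of the list genes passed, beside 32.2% of all genes, and 55% of all genes did not overlap. The lowest total came without stretch library 6 or 7. Library totals alone moved the median of all genes to 0.71 and gave 13 genes, 0 of the lists and 6 members not overlapping, beside 32.8% of all genes. All 8 members then lay on the stretch side, with NBR1 at 0.15, ATG7 at 0.063, BECN1 at 0.58, ULK1 at 0.51, AMBRA1 at 0.25, NFE2L2 at 0.32 and SRXN1 at 0.0044, all below that median. With a mean of at least 10 CPM there were 143 genes (fewer were tested) and 1 member not overlapping, beside 22.2% of all genes. No filter gave 2 genes of the lists (1.59%, beside 1.96% of all genes). DESeq2 gave 1302 genes (11.6%) and 17 of the lists (14%). With doxorubicin library 3 alone there were 99 genes, 0 of the lists and 5 members not overlapping, as 56.9% of all genes did, and the signs of NBR1 (0.20), BECN1 (0.45), ATG101 (-0.0055), AMBRA1 (0.24), WIPI2 (0.57), CTSD (0.39) and SRXN1 (0.25) turned. Voom with quality weights gave 5276 genes (47% of all tested), 3 members and 53 of the lists (43.8% of the list genes). Leaving out each library gave -0.090 to 0.18 for MAP1LC3B2 (below 0 without doxorubicin library 2 or stretch library 4) and -0.031 to 0.33 for GABARAPL1 (below 0 without doxorubicin library 3), and quality weights gave -0.27 and -0.10. The cause was not tested. Depth was lowest in doxorubicin library 2, where 3 counts equal 2.59 CPM.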
